A study of Homo sapiens with 2 samples.

Results

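The genes described here are 10 heat shock chaperone genes: HSPA1A, HSPA1B, HSPA8, HSPH1, HSP90AA1, DNAJB1, HSPB1, HSPD1, HSPE1 and BAG3. They were taken as a list of names, and their probes were found on the arrays by the RefSeq accession of each gene. The list held 15 probes in 33 spots, of 50599 probes that were not controls, and 10 of the 21614 genes that a probe could be named for. Of these, 14 probes of 9 genes were well above background on both arrays and were compared.

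Gene expression was measured in HCT116, a line of human colon cancer cells in wide use. The control cells (mock) carried the mock version of the pEB vector, and the other cells the same vector with an insert, HOXA5 short RNA, which is a transcript of the HOXA5 locus without the first exon and does not code for a protein. Both were kept under the antibiotic blasticidin for 2 weeks, and 400 ng of total RNA of each was labeled with Cy3 and hybridized to 1 Agilent array. Whether the transfected cells were 1 clone or a pool is not given in the sources used here, and the labels name no heat or other stress beside the selection. With 1 array per group no difference was tested, and every difference below belongs to this pair of arrays. In bulk RNA, fewer cells that express a gene and less RNA of it per cell cannot be told apart.

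The arrays shared a slide and a scan. Signals are the brightness of a spot after the background correction of the scanner software, which also marks spots well above background. Differences are of log2 signals after scaling, that is, less the 75th percentile of the probes of the array. Well above background were 18425 probes (36.4%) in mock and 18955 (37.5%) in HOXA5 short RNA. The HOXA5 probe read 39.4 ± 4.32 in mock and 346 ± 34.6 in HOXA5 short RNA, where ± is the scanner's own error of the spot. After scaling this was 7.11-fold higher, in the direction of the labels. Of 8 colon epithelial markers, 6 (CDH1, CDX2, EPCAM, KRT8, KRT18 and KRT19) were well above background on both arrays, and VIL1 and KRT20 were not. The signals of all 8, by the brightest probe of each, summed to 60421 in mock and 76297 in HOXA5 short RNA. Of 8 markers of other cell types, COL1A1 and DES were detected at low signals. The leukocyte markers PTPRC and CD3E, the endothelial markers PECAM1 and VWF, COL1A2 and HBB were not, and the summed signals of that list were 90.7 and 125.

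Heat shock proteins are chaperones that keep other proteins from aggregating and help them to fold. HSP70 proteins bind unfolded stretches in a cycle of ATP binding and hydrolysis, which J proteins start and nucleotide exchange factors end, and pass some clients on to HSP90. Small heat shock proteins hold unfolding proteins without using ATP, and HSP60 with HSP10 folds proteins inside mitochondria. Under heat and other proteotoxic stress the transcription factor HSF1 binds repeated nGAAn units, the heat shock elements, upstream of many of these genes, and cancer cells often keep the proteins high without heat.

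The promoter windows of 5 of the genes are printed because they show how close the pair HSPA1A and HSPA1B is, how the windows of HSP90AA1 differ, and which members hold the longest runs of heat shock units. Each is the RefSeq window of GRCh38.p14, 250 bases before to 50 bases after an annotated start, 5′ to 3′ on the strand of the gene. Capitals mark each match to GAANNTTC or TTCNNGAA (2 inverted units) and to GAANNTTCNNGAA or TTCNNGAANNTTC (3 units), which read the same on either strand or are each other's reverse complement and may overlap.
HSPA1A chr6:31815293-31815592 (plus strand): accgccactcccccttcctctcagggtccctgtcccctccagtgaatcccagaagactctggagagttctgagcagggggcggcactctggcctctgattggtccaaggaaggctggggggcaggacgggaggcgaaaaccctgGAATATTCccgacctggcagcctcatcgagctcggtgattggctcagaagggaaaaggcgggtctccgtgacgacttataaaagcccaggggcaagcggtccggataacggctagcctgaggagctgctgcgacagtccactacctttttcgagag
HSPA1B chr6:31827488-31827787 (plus strand): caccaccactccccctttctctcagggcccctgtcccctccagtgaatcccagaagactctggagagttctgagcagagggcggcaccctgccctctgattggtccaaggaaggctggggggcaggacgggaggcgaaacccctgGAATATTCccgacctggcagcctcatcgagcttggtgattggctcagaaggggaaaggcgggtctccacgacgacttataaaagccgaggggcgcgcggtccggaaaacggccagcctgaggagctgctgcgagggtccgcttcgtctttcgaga
HSP90AA1 chr14:102086995-102087294 (minus strand): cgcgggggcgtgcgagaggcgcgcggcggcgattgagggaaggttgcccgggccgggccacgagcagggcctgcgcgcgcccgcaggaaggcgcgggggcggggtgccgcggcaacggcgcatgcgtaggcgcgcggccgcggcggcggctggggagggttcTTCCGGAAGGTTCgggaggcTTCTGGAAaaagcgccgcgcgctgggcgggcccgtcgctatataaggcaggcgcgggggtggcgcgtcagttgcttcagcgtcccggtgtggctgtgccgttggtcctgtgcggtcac
HSP90AA1 chr14:102139700-102139999 (minus strand): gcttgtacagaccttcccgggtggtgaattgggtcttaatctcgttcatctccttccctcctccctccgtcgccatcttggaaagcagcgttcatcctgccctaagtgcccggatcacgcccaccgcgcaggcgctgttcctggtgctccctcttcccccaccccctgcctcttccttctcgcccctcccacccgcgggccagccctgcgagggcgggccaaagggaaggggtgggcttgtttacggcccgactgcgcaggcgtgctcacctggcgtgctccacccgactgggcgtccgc
HSPA8 chr11:123062087-123062386 (minus strand): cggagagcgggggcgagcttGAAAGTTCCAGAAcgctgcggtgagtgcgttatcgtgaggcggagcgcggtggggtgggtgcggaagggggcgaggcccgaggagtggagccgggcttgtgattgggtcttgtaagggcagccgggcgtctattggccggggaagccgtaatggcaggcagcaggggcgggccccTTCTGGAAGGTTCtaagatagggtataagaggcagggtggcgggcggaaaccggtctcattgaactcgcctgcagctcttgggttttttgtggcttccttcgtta
HSPD1 chr2:197499791-197500090 (minus strand): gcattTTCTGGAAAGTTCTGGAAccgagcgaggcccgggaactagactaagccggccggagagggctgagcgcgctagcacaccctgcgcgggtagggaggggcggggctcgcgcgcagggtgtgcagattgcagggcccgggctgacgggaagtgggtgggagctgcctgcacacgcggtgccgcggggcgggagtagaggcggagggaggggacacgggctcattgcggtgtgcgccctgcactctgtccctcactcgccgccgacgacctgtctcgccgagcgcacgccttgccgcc

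The windows of HSPA1A and HSPA1B were identical at 277 of 299 aligned bases (92.6%), and their starts lay 12195 bases apart on chromosome 6. Each held 1 match of 2 units, 106 and 105 bases before the start. The downstream HSP90AA1 window held 3 matches of 2 units and 1 run of 3 units, and the other HSP90AA1 window, 52705 bases away, held none. HSPA8 held runs of 3 units at 230 and 55 bases before the start, and the HSPD1 window held overlapping runs at 245 and 240. Over all 14 windows of the 10 genes, 8 held 2 units and 3 held 3 units, while 13.5% and 0.490% of all 35116 windows in the table did. By gene, 7 of the 10 held 2 units in some window, against 16.2% of 27305 genes. A match describes the letters of a window and not binding, and the table does not tie a window to a probe.

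Most of the chaperone genes had nearly the same level on both arrays. None of the 9 genes compared differed 2-fold between HOXA5 short RNA and mock, beside 0.9% of all 11994 genes compared. HSP90AA1 was the only one past 1.5-fold, where 4.38% of all genes were. On the log2 scale, HOXA5 short RNA minus mock after scaling, 4 genes were higher and 5 lower, with a median difference of -0.03 against -0.02 over all genes. These signs turn with the scaling, to 6 higher and 3 lower by the median of the array and 9 and 0 by the spike-ins, as the values of all genes shift too. For 7 of the 9 the difference was within 0.25 of 0. HSP90AA1 was at 0.83, the mean of 3 probes that ran from -0.10 to 1.69, and BAG3 was at 0.39. The other 7 genes lay between -0.17 and 0.02.

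The size of a difference can be set against the spread of single spots, which came from probes printed in many copies. Its SD in log2 difference was 0.27 for mock signals below 50, 0.19 from 50 to 200, 0.15 from 200 to 1000 and 0.16 above 1000. This spread holds measurement error on these arrays and no spread between cultures. Copies marked as outliers by the scanner software were left out of it, so it can understate the spread of all copies. Of the 14 member probes, 9 lay within 1 SD of 0 and 11 within 2 SD. The 3 beyond were both HSP90AA1 probes of 1 accession and the BAG3 probe.

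**Figure D1:**
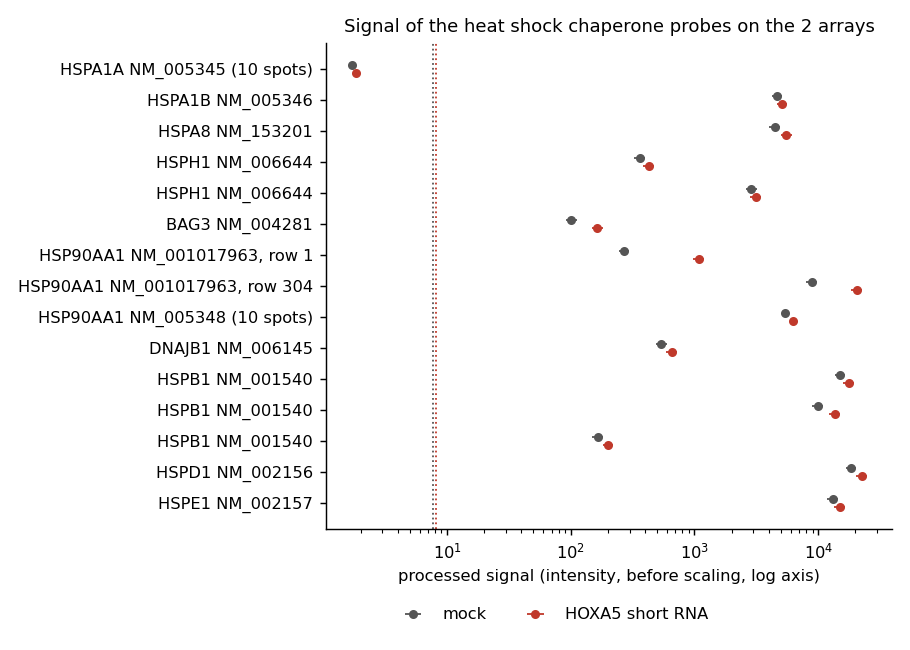
Processed signal of each of the 15 heat shock chaperone probes on the mock (grey) and HOXA5 short RNA (red) arrays, in intensity units before scaling on a log axis. Bars are the scanner's error for single spots, probes printed in 10 spots have none, and dotted lines mark the lowest signal well above background on each array (7.74 and 8.16). HSPA1A lies below both lines, and most of the other pairs lie close together.

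The inducible HSP70 genes HSPA1A and HSPA1B encode nearly the same protein, and the arrays detected only the HSPA1B probe. The HSPA1A probe was printed in 10 spots. Its signals on the mock array had a lowest value of 1.53, a median of 1.71 and a highest of 3.62, and on the HOXA5 short RNA array these were 1.66, 1.87 and 2.02. The copy at 3.62 was marked as an outlier, and without it the highest on the mock array was 1.92. The 2 ranges overlapped, and 0 of the 10 copies were well above background on either array, so no fold is given. The HSPA1B probe read 4676 ± 468 in mock and 5118 ± 512 in HOXA5 short RNA. After scaling this was a log2 difference of -0.17, or 1.12 times the spot SD. The spots around it had a median of -0.19, and with that local median subtracted the difference was 0.02. The probe sequences were not used here, so how far each probe reads the RNA of the other gene was not tested, and the signals of different probes are not compared.

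HSPA8, the constitutive HSP70 of the cytosol, read 4443 ± 444 in mock and 5541 ± 554 in HOXA5 short RNA. Its scaled difference was 0.02, a small part of the spot SD. DNAJB1, a J protein that drives the ATPase of HSP70, read 541 ± 54.1 and 655 ± 65.5, a difference of -0.03. In both cases the unscaled signal was higher on the HOXA5 short RNA array, as was the 75th percentile of that array (44.0 against 35.7), which the scaling takes out.

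HSPH1 encodes an HSP110 protein, a nucleotide exchange factor of HSP70. One of its probes read 2888 ± 289 in mock and 3138 ± 314 in HOXA5 short RNA, and the other 363 ± 36.4 and 429 ± 42.9. After scaling the differences were -0.18 and -0.06, and the mean of the gene was -0.12. BAG3, which binds HSP70 and small heat shock proteins and links them to autophagy, stood further out. Its only probe read 101 ± 10.3 in mock and 164 ± 16.6 in HOXA5 short RNA. This was 1.31-fold higher after scaling (log2 difference 0.39), 2.13 times the spot SD, and 0 of its 40 neighbouring spots differed 2-fold. It lay inside the central 95% of all genes compared, from -0.52 to 0.62.

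**Figure D2:**
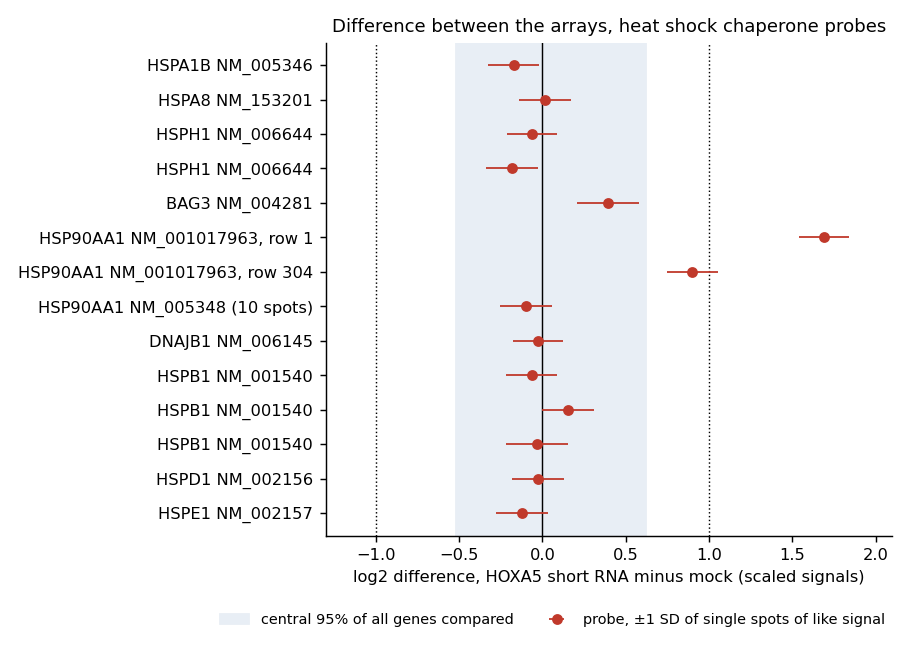
Scaled log2 difference, HOXA5 short RNA minus mock, for each of the 14 heat shock chaperone probes compared. Bars are 1 SD of single spots of like signal, the shaded band is the central 95% of all genes compared, and dotted lines mark 2-fold. Both NM_001017963 probes of HSP90AA1 lie to the right of the band at 1.69 and 0.90, and all the others lie within it.

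HSP90AA1, the stress-inducible cytosolic HSP90, had probes that disagreed. Its 3 probes carry the accessions of 2 transcript records of the gene. The probe of NM_005348 was printed in 10 spots. Their signals ran from 3409 over a median of 5234 to 6622 on the mock array, and from 5849 over 6282 to 7569 on the HOXA5 short RNA array. Without the 2 copies the scanner software marked as outliers, the mean scaled log2 difference was -0.10 ± 0.12 (SD, n = 8 spots), and 7 of the 8 copies were lower. With all 10 copies it was 0.01 ± 0.25, from -0.29 to 0.52. So this probe was at about the same level on both arrays.

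The other probes, both of NM_001017963 and in 1 spot each, were higher with HOXA5 short RNA. One read 271 ± 27.2 in mock and 1080 ± 108 in HOXA5 short RNA, 3.23-fold higher after scaling. It was the only member probe of the 14 past 2-fold, where 1.38% of all 17938 probes compared were and 1.06% were 2-fold higher. The other read 8890 ± 889 and 20479 ± 2048, 1.87-fold higher after scaling, and these were the only member probes past 1.5-fold, where 3.95% of all probes were 1.5-fold higher. The differences were 11.2 and 5.80 times the spot SD, which leaves out copies marked as outliers. The probes of HSP90AA1 lay 1.79 apart on the log2 scale, and of the 2647 genes with several probes compared, 21 (0.793%) had probes at least as far apart. The mean of the gene, 0.83 or 1.78-fold, lay between those of its probes.

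Both probes lay in grid rows where, over the whole width of the array, a larger share of spots was 2-fold higher with HOXA5 short RNA. The 3.23-fold probe lay in row 1 of the 384 rows of the grid. In rows 1 to 8, 27 of 443 well-measured spots (6.09%) differed 2-fold and all 27 were higher with HOXA5 short RNA, against 236 of 22383 (1.05%) in the other rows, 175 of them higher. Among 48 blocks of 8 rows, rows 1 to 8 had the highest share of spots 2-fold higher. The 1.87-fold probe, in row 304, lay in the block with the next highest share, 16 of 442 spots (3.62%) in rows 297 to 304, where the median block had 0.720%.

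Close to each probe, few other spots differed. Of the neighbours within 4 rows and 4 columns, 1 of 12 differed 2-fold around the probe in row 1 and 1 of 34 around the probe in row 304, with median differences of 0.14 and 0.02. In rows 297 to 304 the higher spots had a median column of 7, while the HSP90AA1 probe was in column 102, and 3 of the 16 were within 10 columns of it. Without the top 8 rows the mean of HSP90AA1 was 0.40. The part of the position in these differences was not tested, nor was a difference between the transcripts of the gene.

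**Figure D3:**
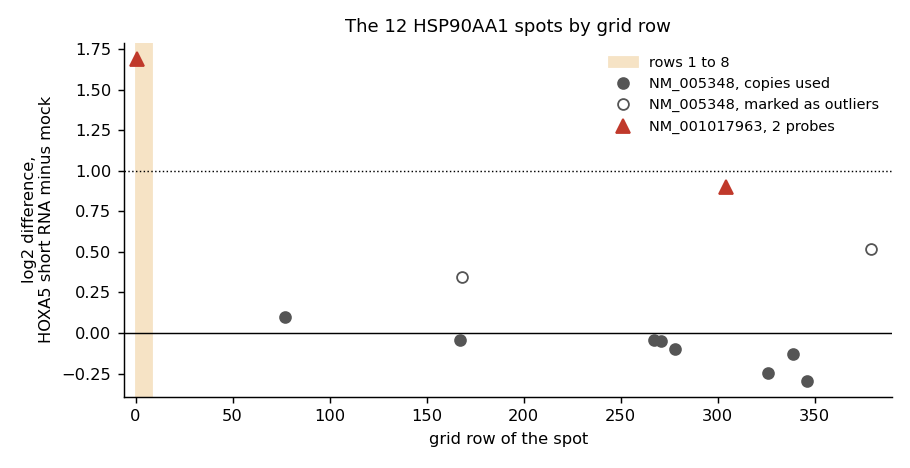
Scaled log2 difference, HOXA5 short RNA minus mock, of the 12 HSP90AA1 spots by their row on the array grid. Circles are the 10 copies of the NM_005348 probe (open: marked as outliers by the scanner software), triangles are the NM_001017963 probes, the dotted line marks 2-fold and the shaded strip rows 1 to 8. The copies lie between -0.29 and 0.52, and the triangles at 1.69 and 0.90 lie above all of them.

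HSPB1, the small heat shock protein HSP27, was read by 3 probes. Their signals were 15074, 9914 and 167 in mock and 17782, 13607 and 201 in HOXA5 short RNA. The scaled log2 differences were -0.07, 0.15 and -0.03 in the same order, with a mean of 0.02. All were within 1 SD of single spots.

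HSPD1 (HSP60) and HSPE1 (HSP10) form the folding chamber of mitochondria, and their genes lie head to head on chromosome 2, where the HSPE1 window shares 204 bases with the upstream HSPD1 window. HSPD1 read 18494 ± 1849 in mock and 22415 ± 2241 in HOXA5 short RNA, a scaled difference of -0.03. HSPE1 read 13103 ± 1310 and 14867 ± 1487, a difference of -0.12. Neither was past 1 SD of single spots, and none of the spots around them differed 2-fold (0 of 31 and 0 of 33).

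The other genes of the chaperone network were taken from 9 lists by family or role. Each counted once, 77 of the 93 genes were compared, and 41 were higher and 36 lower, with a median difference of 0.003. TCP1 and SUGT1 reached 2-fold, both higher with HOXA5 short RNA, where 0.642% of all genes did. At 1.5-fold, 6 were higher and 1 lower, beside 2.78% and 1.6% of all genes.

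Among the heat shock factors, HSF1, the main activator of these genes, was compared by 2 probes. They read 4509 and 3721 in mock and 5120 and 4300 in HOXA5 short RNA, scaled differences of -0.12 and -0.10. Another HSF1 probe was detected in mock only, with 11.0 ± 1.99 in mock and 8.12 ± 1.96 in HOXA5 short RNA. Both signals lay near the lowest well above background (7.74 and 8.16). Its bound after scaling, 1.67-fold higher in mock, takes no account of these errors. HSF2, a related factor, read 278 and 271, a difference of -0.34 or 2.26 times the spot SD. HSBP1, which binds HSF1, was at 0.002. HSF5 was detected on the HOXA5 short RNA array only, with 25.3 against 1.55 on the mock array, and after scaling was at least 2.65-fold higher, where 6.11% of the 1014 probes detected only on that array had a bound of 2-fold.

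Of the other HSP70 and HSP110 genes, 1 of 8 was higher and 7 were lower, with a median of -0.14 and none past 1.5-fold. Of all genes 45.5% were higher, and their median was -0.02. Scaled by the spike-ins, the list median was 0.26 and that of all genes 0.37. In the main scaling the 8 genes ran from HSPA13, at -0.43, to HYOU1, the HSP110 relative of the endoplasmic reticulum, at 0.08. HSPA6, a strictly inducible HSP70 of human cells, was not well above background on either array. For the 20 other J proteins the median was -0.03, with 9 higher and 11 lower. DNAJB14, a J protein of the endoplasmic reticulum membrane, was lowest at -0.57. DNAJA1, a cytosolic partner of HSP70, was highest, with 828 in mock and 1711 in HOXA5 short RNA, 1.67-fold higher and 4.95 times the spot SD, and 0 of its 17 neighbours differed 2-fold.

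HSP90AB1, the constitutive cytosolic HSP90, also had probes that disagreed. The probe in row 2 of the grid read 397 ± 39.7 in mock and 1281 ± 128 in HOXA5 short RNA, a scaled difference of 1.39. The probe in row 359 read 3816 ± 382 and 4797 ± 480, a difference of 0.03. The mean was 0.71, HSP90B1 was at 0.003, and TRAP1, the mitochondrial HSP90, at -0.12.

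In the chaperonin CCT, which folds actin and tubulin, TCP1 passed 2-fold by its mean of 1.04. One TCP1 probe, in row 7, read 17.7 ± 2.59 in mock and 87.2 ± 8.96 in HOXA5 short RNA, and the other, in row 236, read 322 ± 32.2 and 419 ± 42.0. Their scaled differences were 2.00 and 0.08. CCT6A was at -0.48, and the median of the 7 subunits compared was 0.01. Among 12 co-chaperones of HSP90, 8 were higher and 4 lower. SUGT1, which works with HSP90 at kinetochores and on immune receptors, was highest by its only probe, in row 7, with 27.6 ± 3.28 and 89.2 ± 9.13 and a difference of 1.39. PPID, a cyclophilin that binds HSP90, was lowest at -0.15. Of the member and related probes detected on both arrays, 4 differed 2-fold (of HSP90AA1, HSP90AB1, TCP1 and SUGT1). Of all 17938 probes compared, 1.38% did. All 4 lay in rows 1 to 8 of the grid, where probes of DNAJA4 (-0.25), BAG1 (0.15) and RBM23 (0.43) did not reach 2-fold. Among the neighbours, 0 of 22 differed 2-fold around the HSP90AB1 probe, 2 of 30 around the TCP1 probe and 0 of 28 around the SUGT1 probe. The part of the position was not tested. The HSF5 and BAG4 probes detected on 1 array and bounded above 2-fold lay in rows 223 and 3.

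**Figure D4:**
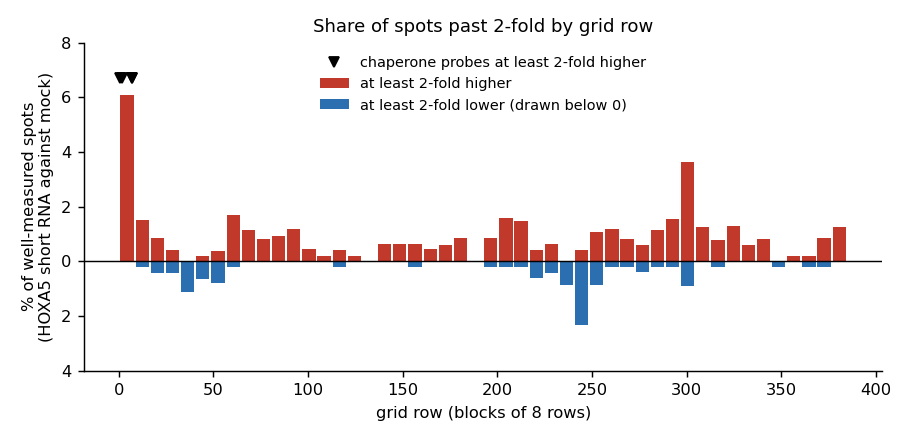
Share of well-measured spots at least 2-fold higher (red) or lower (blue, drawn below 0) with HOXA5 short RNA, in percent, for 48 blocks of 8 grid rows. Triangles mark the rows of the chaperone probes that were detected on both arrays and at least 2-fold higher. Rows 1 to 8 have the highest share, 6.09%, and hold all 4 of these probes.

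Partners of HSP70 in nucleotide exchange and disaggregation lay close to 0, with 6 higher and 4 lower and a median of 0.02. SIL1 and GRPEL1, exchange factors of the endoplasmic reticulum and of mitochondria, were the lowest and highest, at -0.31 and 0.09. A BAG4 probe in row 3 was detected on the HOXA5 short RNA array only and after scaling was at least 2.30-fold higher. Of the 1014 probes detected only on that array, 6.11% had a bound of 2-fold. The other BAG4 probe was at -0.11. Of the other small heat shock proteins 3 were compared, with signals of 9.84 to 30.2. HSPB9 read 15.9 in mock and 10.7 in HOXA5 short RNA, a difference of -0.88, and CRYAA was highest at 0.30.

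The other target genes of HSF1 had the highest median among the lists with over 3 genes compared, 0.17, with 13 of 18 higher, where 45.5% of all genes were. The median was 0.09 without the top 8 rows, 0.20 with the local median subtracted and 0.10 with the brightest probe per gene. By the last of these the HSP90 co-chaperones, at 0.11, were above it. The target genes ran from ZFAND2A, at -0.40, to TCP1, at 1.04. The median over the spots around ZFAND2A was also -0.40. The list holds TCP1 and HSP90AB1, whose high probes lay in the top rows, and RBM23, at 0.43 by a probe in row 3. No test compares the list with other genes.

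**Figure D5:**
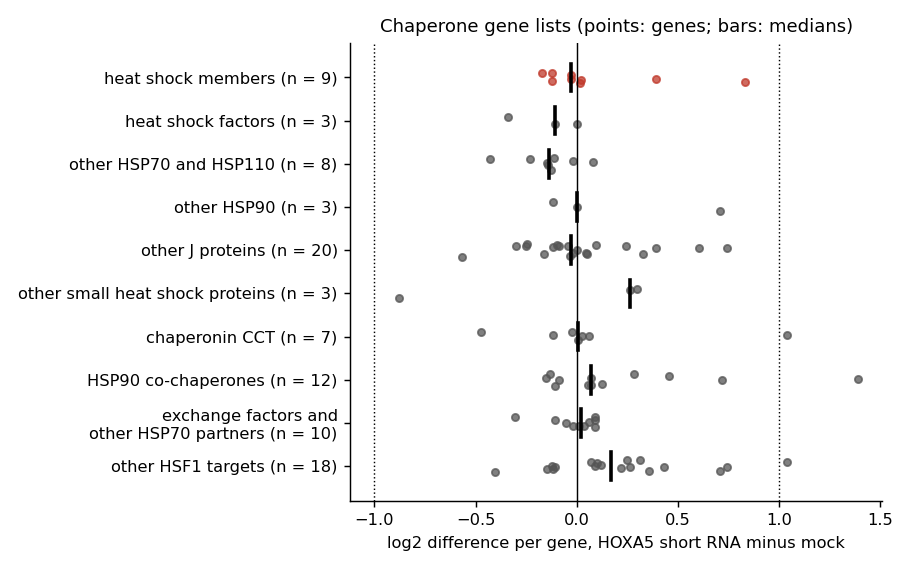
Scaled log2 difference per gene, HOXA5 short RNA minus mock, for the heat shock chaperone genes (red) and 9 related lists (grey), with black bars at the medians and dotted lines at 2-fold. A gene in several lists is drawn in each. The medians lie between -0.14 and 0.26, and TCP1 and SUGT1 are the only genes past 2-fold.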

How the data were processed

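Gene expression in HCT116 cells was measured on Agilent SurePrint G3 human arrays, with 1 array for mock and 1 for HOXA5 short RNA. Groups were taken from the genotype label, since the protocol text of both samples describes the HOXA5 short vector. Per the file headers, the scans were read by Feature Extraction 11.5.1.1 and the probes annotated on hg19. The deposited scanner files give each spot's intensity after background correction, with its error and flags. The authors also deposited log2 values for 19461 probes, made with a commercial package after a filter on low and flagged signals. Their columns are mirror images, with medians of 0.0057 and -0.0057, so each probe was centred, and the scaling is not stated. Their difference followed the scanner values after scaling (Pearson's r = 1.00 across probes, which are not replicates).

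Spots marked as outliers were left out, the spots of a probe averaged in log2, and the 75th percentile of the non-control probes of each array subtracted. Probes well above background on both arrays were compared, a gene's value was the mean over its probes, and 2-fold was the threshold. A probe detected on 1 array has a bound, against the higher of its own dim signal and the lowest signal well above background there. Accessions were matched to RefSeq records of GRCh38.p14, which named 30004 probes (59.3%). The spread came from 590 probes with at least 5 copies. The number of arrays limits the precision, and there is no replicate check. Analyses used Python 3.11.15 with pandas 2.3.3 and numpy 2.4.6, and limma 3.58.1 in R 4.3.3, and were tested on simulated data. The alternatives were other scalings, normexp (offset 50, on median signals), the deposited values, other filters, thresholds of 1.5-fold and 3-fold, 1 probe per gene and array position.

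The members and lists were chosen with earlier results of these data known. The genes named are the members, HOXA5, HSF1, HSF2, the markers, list genes at or bounded at 2-fold, and the highest and lowest gene of each list. HSPA6, HSP90B1, DNAJA4, BAG1 and RBM23 were named after their values were seen.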

Additional observations from a re-analysis of the deposited data

How the results depend on the processing

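No paired analysis was possible because each group had 1 array, and for the same reason no replicate could be left out. Leaving out the top 8 rows and keeping outlier spots were chosen after seeing the data. Of all genes, 77 were 2-fold higher and 31 lower. All 7 spike-ins detected were lower with HOXA5 short RNA, from -0.66 to -0.04 with a median of -0.47, so they differed on the size of the shift. Scaling to the spike-ins moved the median of all genes from -0.02 to 0.37, less than a shift by that median would. It moved the median of the members to 0.37 and of the related genes to 0.40, and put all 9 members above 0. At 2-fold it gave 1 member, 6 related genes, 321 higher and 9 lower genes, and HOXA5 was at 3.23. A scaling by 1 factor per array cannot move the median of the members less that of all genes, which was -0.0047. It was 0.12 with normexp and 0.08 with no filter. Scaling to the median moved all genes to 0.08, with 6 members higher and 3 lower and 108 genes higher and 20 lower at 2-fold. With normexp, 8 members were higher and 1 lower, no related gene (0) reached 2-fold, 37 genes were higher and 8 lower, and HOXA5 was at 1.91. Genes higher and lower were 216 and 108 in the deposited values, 447 and 566 with no filter, and 35 and 14 among signals above the median. At 1.5-fold, 1 member, 7 related, 333 higher and 192 lower genes passed, and at 3-fold 0 related, 21 higher and 6 lower. The count of related genes at 2-fold was 4 with no filter, 0 above the median signal, 1 with the brightest probe per gene and 0 without the top rows. HSP90AA1 ranged from 0.40, without the top rows, to 1.23, by spike-in scaling, and stayed above 0 in all 14 settings. Its NM_001017963 probe in row 304 entered every setting, at 0.83 to 1.30, so no setting shows the mean of the gene without that probe. Where it was used, the NM_005348 probe ranged from -0.16, with quantile normalization, to 0.30, by spike-in scaling. Signal over background limits HSPA1A, for which no change could be detected.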
